A study of Homo sapiens with 8 samples.

Results

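The genes described here are 10 transcripts of phagocytes, CYBB, FCER1G, LYZ, CD14, MPEG1, CD53, SRGN, LAPTM5, CTSS and ALOX5AP, out of 18417 genes measured. They were chosen by their measured rise from the ABCB5-negative to the ABCB5-positive array of the line SW620, so that difference is given as a description, without a test. Each of the 10 had 1 probe set that named no other gene, and all 10 passed the filter on dim genes. The 8 arrays (Affymetrix Human Gene 1.0 ST) carried RNA of sorted tumour cells, with 1 ABCB5-positive and 1 ABCB5-negative array from each of COLO741 and HCT116 (labelled colon carcinoma), HT29 (colon adenocarcinoma) and SW620 (a lymph node metastasis of colon carcinoma). All cells were untreated, grew in RPMI medium with fetal bovine serum and penicillin/streptomycin, and were separated by fluorescence with an antibody against ABCB5, a membrane transporter. For SW620, the name on the samples and the one used here, the design text of the series has SW480. Every line is an established culture represented by 1 array per population, so a difference within 1 line has no replicate.

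Phagocytes, chiefly macrophages, monocytes and neutrophils, engulf particles and destroy them in a maturing vacuole. The 10 genes serve several steps of this work, from recognition at the surface (CD14, FCER1G) through the oxidative burst (CYBB) to digestion and membrane attack (LYZ, CTSS, MPEG1), and include proteins of granules, lysosomes and the cell surface (SRGN, LAPTM5, CD53) and an accessory protein of leukotriene synthesis (ALOX5AP). In the intestine macrophages of the wall carry most of these transcripts, while LYZ is also a product of Paneth cells, which are epithelial.

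The sequences before the start sites of these genes are shown first. Since the genes were chosen for a rise on 1 array, their moving together is no result, and a shared regulator was not tested. RefSeq promoter entries of GRCh38.p14 matched 6 of the 10 genes, with 7 start sites. The 250 bases before the start are printed 5′ to 3′ on the strand of the gene for 4 of them: CYBB and FCER1G, whose SW620 differences were the widest of the 10 in the values as deposited, CD14, the classic monocyte antigen, and ALOX5AP, whose difference was under 2-fold. Capitals mark matches to GAGGAA, a core bound by the myeloid factor PU.1 and by other ETS proteins, and to the core of interferon response elements, GAAA followed after any 2 bases by a second GAAA, each searched on both strands.
CYBB, chrX:37779809-37780058, plus strand: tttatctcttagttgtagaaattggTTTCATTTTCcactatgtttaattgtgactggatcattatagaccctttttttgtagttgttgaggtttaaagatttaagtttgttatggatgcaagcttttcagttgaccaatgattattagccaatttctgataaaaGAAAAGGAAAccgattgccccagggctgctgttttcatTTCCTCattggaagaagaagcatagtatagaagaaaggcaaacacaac
FCER1G, chr1:161215045-161215294, plus strand: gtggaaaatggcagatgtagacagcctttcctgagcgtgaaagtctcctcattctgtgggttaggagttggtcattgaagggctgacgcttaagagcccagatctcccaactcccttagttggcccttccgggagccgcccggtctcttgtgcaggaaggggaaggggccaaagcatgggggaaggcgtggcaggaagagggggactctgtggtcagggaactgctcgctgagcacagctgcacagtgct
CD14, chr5:140633176-140633425, minus strand: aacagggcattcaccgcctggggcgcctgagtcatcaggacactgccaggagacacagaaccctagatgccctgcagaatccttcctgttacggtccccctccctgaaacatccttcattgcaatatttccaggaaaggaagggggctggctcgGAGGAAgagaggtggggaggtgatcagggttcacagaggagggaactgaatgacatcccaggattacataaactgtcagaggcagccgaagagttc
ALOX5AP, chr13:30713235-30713484, plus strand: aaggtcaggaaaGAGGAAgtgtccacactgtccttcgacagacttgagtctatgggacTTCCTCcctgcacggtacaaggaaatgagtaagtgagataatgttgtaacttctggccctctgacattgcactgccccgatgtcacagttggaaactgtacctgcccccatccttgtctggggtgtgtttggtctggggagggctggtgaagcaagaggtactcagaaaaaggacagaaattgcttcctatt
GAGGAA or its complement TTCCTC occurred before 4 of the 7 start sites, those of CYBB, CD14, ALOX5AP and the second start of CD53, against 23.6% of 35116 promoter entries. The CYBB window alone of the 7 held the interferon response core, in 2 places that did not overlap the GAGGAA match, against 3.02% of the entries. No window of the 6 genes held TATAAA, which 10.7% of the entries held. These matches are descriptions of the letters in the windows.

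Levels are the deposited log2 values, and differences are the ABCB5-positive minus the ABCB5-negative array of a line, also in log2 units. A value under 7.50, the 95th percentile of 360 probe sets of olfactory receptors (a gene family used in the nose), is treated as background. Some of these probe sets exceed that limit by its definition, so a value above it need not reflect transcript. ABCB5 itself lay at background in both SW620 arrays, at 5.25 in the negative and 5.35 in the positive array. Its transcript therefore does not check the SW620 labels, and in COLO741 it opposed them, at 9.42 and 8.14. In HT29, at 5.36 and 5.24, and in HCT116, at 5.40 and 5.69, it was also at background, so the comparisons of populations rest on the sort labels. Both SW620 arrays otherwise resembled each other, with a correlation of 0.994 across all probe sets, within the 0.993 to 0.996 of the other lines. Melanocyte markers had a summed level of 16.09 to 16.43 (log2 of the sum) in COLO741 and of 11.02 to 11.43 in the other lines. Epithelial markers had 12.73 to 12.83 in COLO741 and 16.22 to 17.14 in the other lines, so the labelled colon carcinoma origin is met by defining epithelial genes in SW620, HT29 and HCT116 and not in COLO741.

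All 10 genes were higher in the SW620 ABCB5-positive array, where 54% of 16910 genes were, by 0.73 to 3.22 with a median of 1.48. Of the 10, 8 reached 2-fold higher, where 0.52% of genes did, and 0 reached 2-fold lower, where 0.0946% did. With values below background raised to its limit, 6 of the 10 reached 2-fold, where 0.242% of genes did. At least 1.5-fold higher were 10 of the 10, where 1.79% of genes were, and at least 3-fold higher 5, where 0.142% were. Since the choice of the genes fixed this, nothing is read from these counts. Over all genes tested the median SW620 difference was 0.02. Above background were 3 of the 10 genes in the SW620 ABCB5-negative array and 9 of the 10 in the positive array, against 1 to 4 in each of the other 6 arrays. The SW620 ABCB5-positive array was the highest of all 8 for 8 of the genes, a position it held for 13.9% of genes, and the exceptions were LYZ and CTSS.

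**Figure D1:**
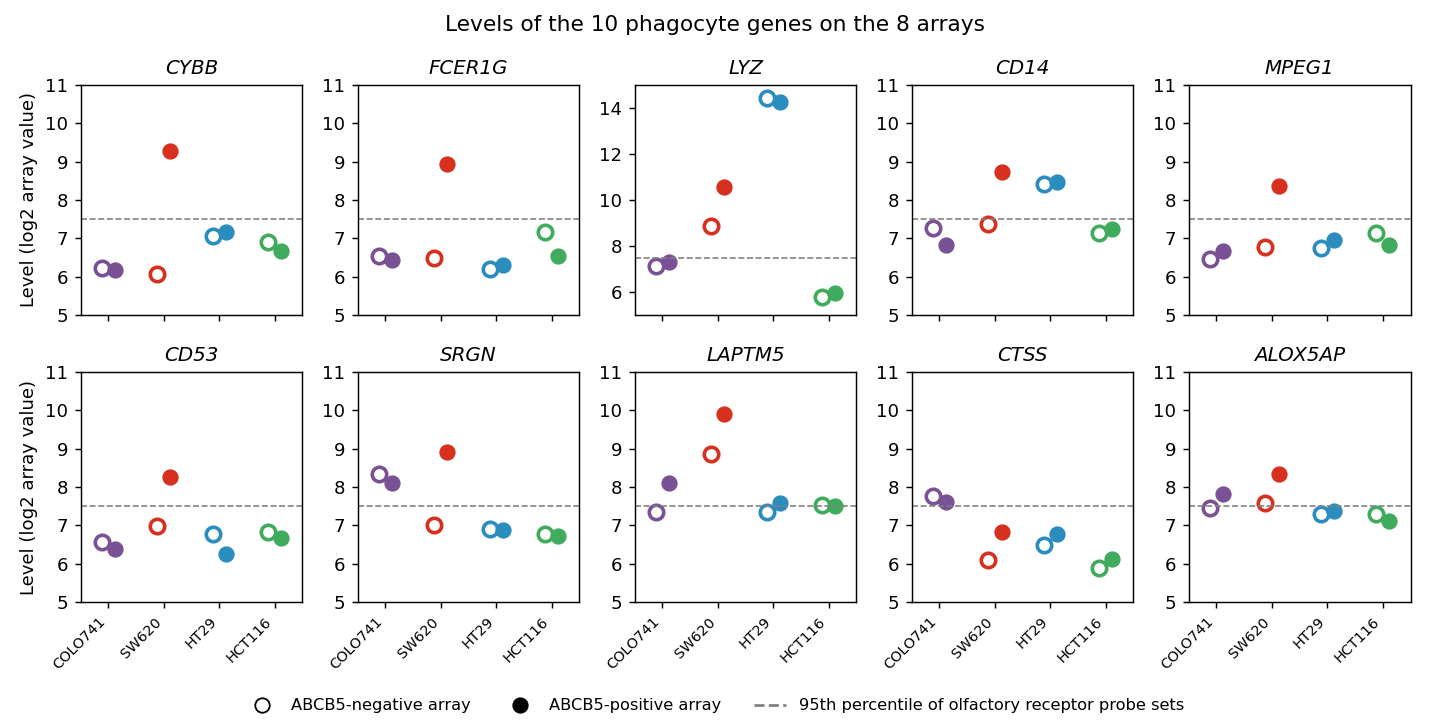
Deposited log2 level of each of the 10 genes (vertical axis; LYZ has a longer axis) on the 8 arrays, by cell line, with open circles for ABCB5-negative and filled circles for ABCB5-positive arrays and a dashed line at 7.50, the 95th percentile of olfactory receptor probe sets. The filled SW620 circle is the highest of 8 in every panel but LYZ, where HT29 is near 14, and CTSS, where COLO741 is highest.

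CYBB encodes gp91phox, the catalytic subunit of the phagocyte NADPH oxidase that makes superoxide. Its level (probe set 8166730) was 9.28 in the SW620 ABCB5-positive array and 6.06 in the negative array, with 6.23 and 6.18 in the negative and positive arrays of COLO741, 7.06 and 7.17 in those of HT29, and 6.91 and 6.66 in those of HCT116. The other 7 arrays all lay at background, and the positive SW620 array stood 2.11 above the highest array of another line. The CYBB difference in SW620 was 3.22, rank 2 by rise among all genes tested there. Measured against the background limit it amounts to at least 3.45-fold, since the negative array gives only an upper limit.

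FCER1G, the common gamma chain that carries the signal of Fc receptors for IgG and IgE, showed the same arrangement. The FCER1G level (probe set 7906720) was 6.48 and 8.93 in the SW620 negative and positive arrays, 6.55 and 6.44 in COLO741, 6.21 and 6.31 in HT29, and 7.17 and 6.53 in HCT116. Only the positive SW620 array exceeded background, and the difference of 2.45 ranked 3 among all genes by rise and amounts to at least 2.71-fold. CD14, the co-receptor that hands bacterial lipopolysaccharide to TLR4, differed by less. The CD14 level (probe set 8114612) was 7.37 and 8.74 in SW620, 8.41 and 8.46 in HT29, 7.26 and 6.81 in COLO741, and 7.15 and 7.25 in HCT116. HT29 thus carried CD14 above background in both populations, the positive array 0.28 below that of SW620, and the SW620 difference of 1.37 amounts to at least 2.36-fold.

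LYZ, lysozyme, which cleaves bacterial cell walls, had its highest level outside SW620. Its level (probe set 7957023) was 14.42 and 14.27 in the negative and positive arrays of HT29, 8.89 and 10.55 in SW620, 7.12 and 7.31 in COLO741, and 5.79 and 5.96 in HCT116. Both SW620 arrays were above background, so the difference of 1.67, or 3.17-fold, is a measured one. MPEG1, perforin-2, a pore former that damages engulfed bacteria, was above background in 1 array. The MPEG1 level (probe set 7948364) was 8.38 in that array, SW620 positive, against 6.77 in SW620 negative, 6.47 and 6.67 in COLO741, 6.74 and 6.96 in HT29, and 7.14 and 6.83 in HCT116. Its difference of 1.60 amounts to at least 1.84-fold.

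CTSS, cathepsin S, a protease that trims the class II invariant chain, differed least in SW620 and stayed at background there. CTSS (probe set 7919800) measured 6.10 and 6.83 in SW620, 7.76 and 7.61 in COLO741, 6.49 and 6.78 in HT29, and 5.90 and 6.13 in HCT116. Its SW620 difference of 0.73 therefore has no fold, and the COLO741 arrays alone exceeded background. ALOX5AP, the protein that presents arachidonic acid to 5-lipoxygenase, had its SW620 arrays at 7.59 and 8.33 (probe set 7968344), with 7.45 and 7.82 in COLO741, 7.29 and 7.38 in HT29, and 7.30 and 7.10 in HCT116. That SW620 difference was 0.74, or 1.67-fold, and the positive array was 0.51 above the highest array of another line. CTSS and ALOX5AP had ranks 193 and 186 by rise among the 16910 genes, while the other 8 lay within the first 75.

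Among the granule and membrane proteins, SRGN, serglycin, the proteoglycan that packs granule proteins, differed most. SRGN (probe set 7927964) measured 7.01 and 8.91 in SW620, 8.34 and 8.12 in COLO741, 6.90 and 6.89 in HT29, and 6.77 and 6.72 in HCT116. COLO741 also lay above background, 0.56 or more below the positive SW620 array, and the SW620 difference of 1.90 amounts to at least 2.66-fold. CD53, a tetraspanin of leukocytes, measured 6.99 and 8.26 in SW620 (probe set 7903893), 6.57 and 6.38 in COLO741, 6.79 and 6.25 in HT29, and 6.83 and 6.68 in HCT116. Only 1 array exceeded background, SW620 positive, and the difference of 1.27 between the SW620 arrays amounts to at least 1.70-fold.

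LAPTM5, a lysosomal membrane protein of blood cells that lowers antigen receptor levels, was already raised in the negative SW620 array. The LAPTM5 level (probe set 7914270) was 8.85 and 9.91 in SW620, 7.35 and 8.10 in COLO741, 7.35 and 7.60 in HT29, and 7.53 and 7.51 in HCT116. Both SW620 arrays lay above all 6 arrays of the other lines. Its SW620 difference was 1.06, or 2.09-fold, and LAPTM5 was the gene of the 10 whose COLO741 difference, 0.75, came nearest to that of SW620.

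The same contrast in the lines that the choice had not used asked whether these genes go with the ABCB5 label elsewhere. In COLO741 the 10 differences ran from -0.44 to 0.75 with a median of -0.08, in HT29 from -0.53 to 0.30 with a median of 0.10, and in HCT116 from -0.64 to 0.23 with a median of -0.10. Of the 10 genes, 4 were higher in the positive array of COLO741, 7 in that of HT29 and 3 in that of HCT116. At least 2-fold higher were 0 of the 10 in COLO741, where 1.37% of genes were, 0 in HT29, where 0.272% were, and 0 in HCT116, where 0.0237% were. At least 2-fold lower were 0 of the 10 in each, where 0.26% of genes were in COLO741, 0.0237% in HT29 and 0.00591% in HCT116.

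**Figure D2:**
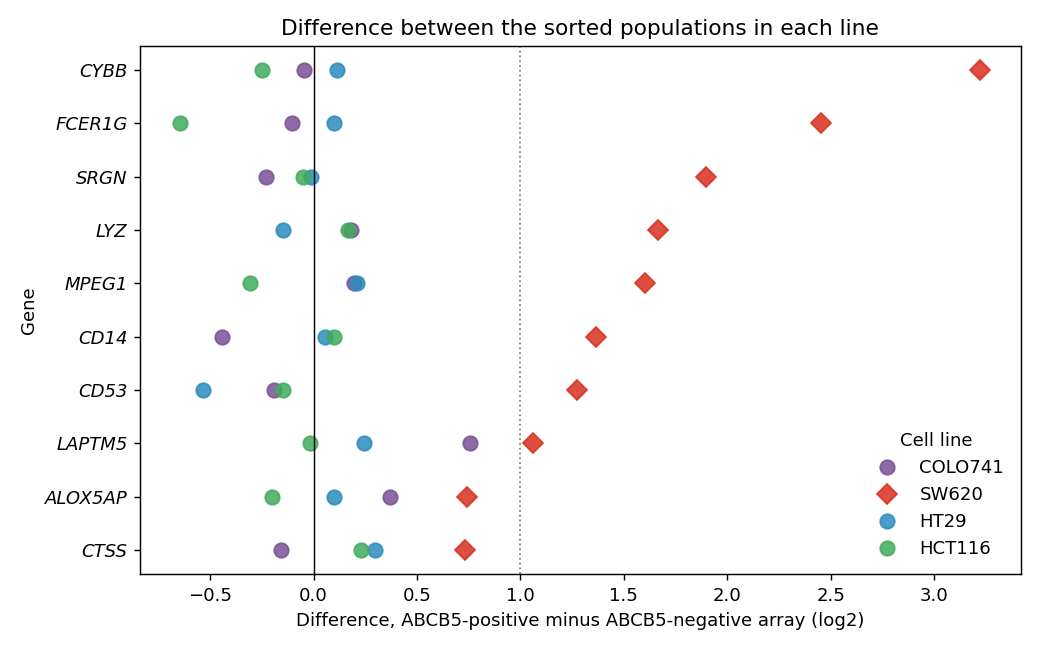
Difference between the ABCB5-positive and the ABCB5-negative array (log2, horizontal axis) of each gene in each line, ordered by the SW620 difference, with diamonds for SW620, circles for the other lines and a dotted line at a 2-fold rise. The SW620 diamonds run from 0.73 to 3.22, while the circles run from -0.64 to 0.75.

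A test over COLO741, HT29 and HCT116 (limma, line as block, 6 arrays) called 0 of the 10 genes at an adjusted p of 0.05 and 0 of all 16910, or 0%. By unadjusted p under 0.05 it picked 1 of the 10, CD53, and 742 of all genes, or 4.39%. CD53 measured -0.29 ± 0.21 (log2, SD, n = 3) and was lower in the positive array of all 3 lines, with an adjusted p of 0.798 from limma. CYBB measured -0.06 ± 0.18, with a 95% interval of -0.30 to 0.17, and FCER1G -0.22 ± 0.38, with an interval of -0.61 to 0.17. For CD14 the interval ran from -0.42 to 0.23, for MPEG1 from -0.29 to 0.35, for SRGN from -0.29 to 0.10, for LYZ from -0.17 to 0.31, for CTSS from -0.16 to 0.40 and for ALOX5AP from -0.22 to 0.40. LAPTM5 measured 0.33 ± 0.39, with the highest upper limit of the 10 at 0.72, and was 0.11 without COLO741. None of the 10 intervals reached a 2-fold rise, though 47 of the 60 values behind them were at background, where a difference of transcripts may not register.

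**Figure D3:**
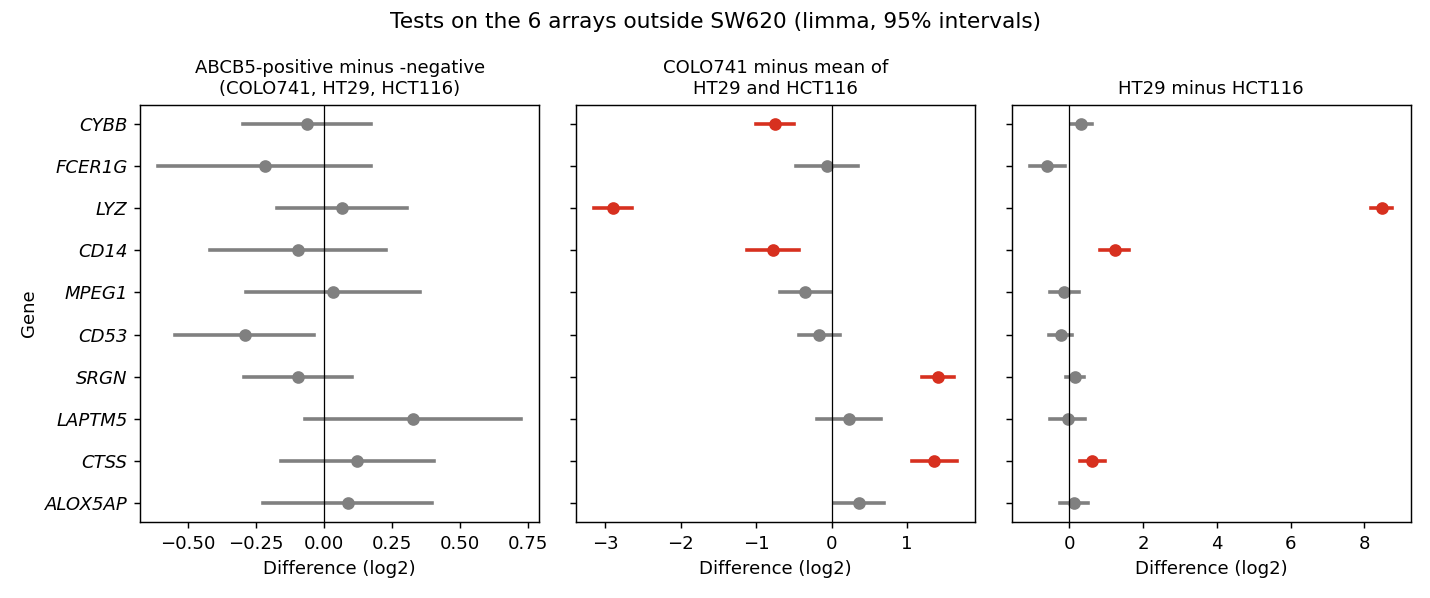
Estimate (circle) and 95% interval (bar) from limma for the 10 genes on the 6 arrays outside SW620, in log2 units, for the population difference, for COLO741 minus the mean of HT29 and HCT116, and for HT29 minus HCT116; red marks an adjusted p under 0.05. No gene is red in the left panel, 5 are in the middle and 3 on the right, where LYZ stands at 8.47.

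Levels by line were also compared without SW620, since only those arrays are independent of the choice. Between COLO741 and the mean of HT29 and HCT116, 5 of the 10 genes passed, where 48% of all genes passed. Of the 10, 2 were higher in COLO741 and 3 lower, where 23.2% and 24.8% of all genes were. SRGN was higher in COLO741 by 1.41 ± 0.08 (standard error, adjusted p = 1.74e-04 from limma), at least 1.66-fold because HT29 and HCT116 were at background. CTSS was higher by 1.36 ± 0.12 (adjusted p = 6.10e-04 from limma), at least 1.14-fold for the same reason. For LYZ the COLO741 difference from the mean of HT29 and HCT116 was -2.89 ± 0.10 (adjusted p = 2.98e-05 from limma). HT29 raised that mean, since LYZ line means were 14.34 in HT29, 7.22 in COLO741 and 5.88 in HCT116. CD14 differed by -0.78 ± 0.13 and CYBB by -0.75 ± 0.10, with adjusted p of 0.00692 and 0.00264 from limma. CD14 line means were 8.43 in HT29, 7.04 in COLO741 and 7.20 in HCT116. For LYZ and CD14 both COLO741 and HCT116 lay at background, and for CYBB all 6 arrays did, so none of the 3 differences has a fold. With the SW620 arrays in the fit, the CYBB and CD14 calls were lost, at adjusted p of 0.418 and 0.095.

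Between HT29 and HCT116, 3 of the 10 genes passed, where 38.2% of all genes passed. All 3 were higher in HT29, as 18.1% of all genes were, and 0 of the 10 were lower, as 20.2% were. LYZ led with 8.47 ± 0.11 (standard error, adjusted p = 1.98e-05 from limma), which is at least 115-fold against the background limit. CD14 was higher by 1.23 ± 0.16 (adjusted p = 0.00323 from limma), at least 1.91-fold. CTSS was higher by 0.62 ± 0.13 (adjusted p = 0.0187 from limma) with all 4 arrays at background, and its call was lost without the positive array of HT29 (adjusted p = 0.117), the negative array of HCT116 (adjusted p = 0.148) or the positive array of HCT116 (adjusted p = 0.0878). By line mean outside SW620, HT29 led for both LYZ and CD14, and COLO741 and HCT116 lay at background without an order. SW620 is not ranked, since the genes were chosen on its arrays. In its negative array LYZ, at 8.89, was above background and CD14, at 7.37, was not. For FCER1G, MPEG1, CD53, LAPTM5 and ALOX5AP neither comparison of lines passed with the values as deposited. Their limma intervals for HT29 minus HCT116 ran from -1.07 at the lowest to 0.51 at the highest. ALOX5AP passed as higher in COLO741 with centred arrays (adjusted p = 0.041 from limma) and with quantile normalization (adjusted p = 0.048 from limma).

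Partners of the 10 genes were read from 16 lists of pathways and cell markers. The lists were chosen with earlier results of these data known. Their SW620 counts come from the contrast that picked the 10, so the counts are descriptions and no separate support. In SW620, 20 of 272 genes on these lists, or 7.35%, were at least 2-fold higher in the positive array and 0 were 2-fold lower, beside 0.516% and 0.0869% of all 18417 measured genes. Both SW620 arrays lay at background for 9 of these 20, and with values below background raised to its limit 6 of the 272, or 2.21%, reached 2-fold, beside 0.223% of all measured genes. The medians of the 16 lists lay between -0.13 and 0.21. In the fit over the other 3 lines 0 genes of these lists passed.

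**Figure D4:**
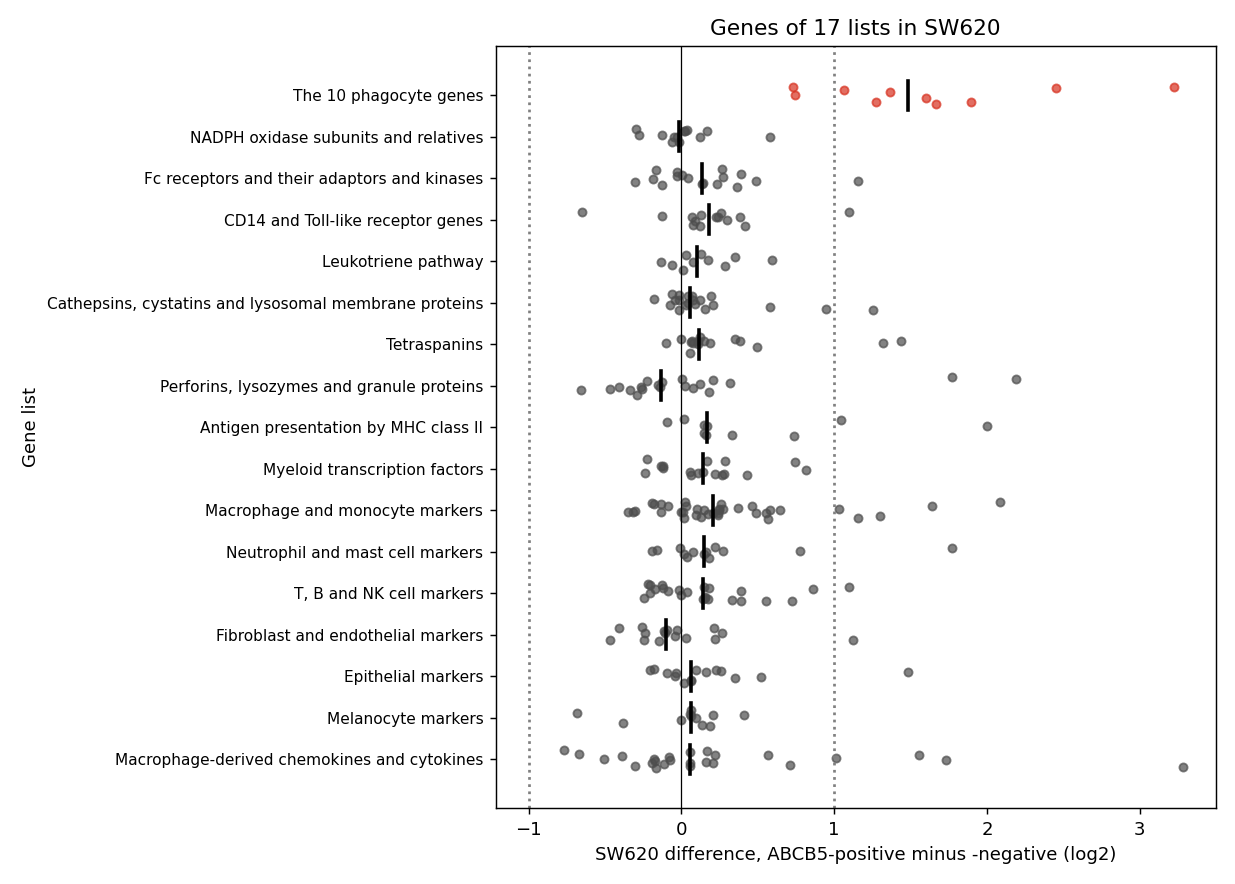
SW620 difference (log2, horizontal axis) of each measured gene of the 10 phagocyte genes (red) and of 16 lists (grey, with small vertical scatter for legibility), with a black bar at each median and dotted lines at 2-fold changes. The medians of the grey lists lie between -0.13 and 0.21, and single genes such as CCL2 at 3.28 reach the range of the red points.

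The oxidase partners of CYBB lay close to 0. Of 13 measured NADPH oxidase genes 0 were 2-fold higher in the SW620 positive array, with a median of -0.02, and the widest SW620 difference was the 0.58 of VAV1, an exchange factor that activates Rac. NOXO1, an organiser of a related epithelial oxidase, differed by -0.29 and DUOX1, at background, by -0.28. Fc receptor genes had 1 of 17 at 2-fold, FCGR2A, a low-affinity IgG receptor, at 5.77 and 6.93, both at background. TYROBP, an adaptor like FCER1G, measured 9.35 and 9.84, and its other 6 arrays lay between 9.18 and 9.55. FCAR, the IgA receptor, differed by 0.39 with both arrays at background.

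Around CD14, 1 of 14 genes was 2-fold higher, LY96 (MD-2), which binds lipopolysaccharide with TLR4, at 5.18 and 6.27, both at background. TLR4 itself measured 9.40 in the negative and 8.75 in the positive array, a difference of -0.65 and opposite to CD14, and TLR1 differed by 0.42 at background. In the leukotriene pathway 0 of 10 genes reached 2-fold. ALOX5, the 5-lipoxygenase that ALOX5AP serves, measured 7.73 and 8.09 in SW620 and was brightest in HT29, at 9.65 and 10.47, while MGST3 differed by 0.29 and CYSLTR1, at background, by 0.59.

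Among 20 cathepsin, cystatin and lysosomal genes 1 was 2-fold higher, CTSL, cathepsin L, at 7.91 and 9.17 or 2.39-fold. CST7, cystatin F, an inhibitor of cathepsins in leukocytes, measured 11.51 and 12.46 in SW620 and 8.42 to 9.74 in the other lines. CD68, a lysosomal glycoprotein of macrophages, measured 9.57 and 10.15 in SW620 and 10.58 to 13.03 in the other 6 arrays, so it was lowest in SW620. Of 16 tetraspanins other than CD53, 2 were 2-fold higher, TSPAN1 at 8.39 and 9.70 and TSPAN8, at background, at 5.93 and 7.36, both epithelial and both brightest in HT29, at 13.52 to 13.55 and 12.44 to 12.77. TSPAN7 differed by 0.49 with both arrays at background.

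Granule genes had 2 of 20 at 2-fold, the calgranulins S100A8, at 5.50 and 7.69, and S100A12, at 5.39 and 7.16 and so at background, which are abundant in neutrophils and monocytes. As a lower bound the S100A8 difference amounts to at least 1.14-fold. GZMB, a granule protease of killer lymphocytes, differed by -0.66. Among 10 class II antigen presentation genes 2 were 2-fold higher. HLA-DPA1 measured 6.94 and 8.95, or at least 2.73-fold, and HLA-DPB1 7.08 and 8.12, or at least 1.54-fold. CD86, a costimulator at background, differed by 0.73. Of 17 myeloid transcription factors 0 reached 2-fold. NFE2 differed by 0.74, BATF by 0.43 and TFEC by 0.81 at background. SPI1, which encodes PU.1, measured 8.19 and 8.05 in SW620 and 8.16 to 8.33 in the other lines. Such a nearly level value above the background limit need not reflect transcript.

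Macrophage and monocyte markers were higher in the SW620 positive array for 28 of 37 genes, where 54% of the 16910 genes tested were. Their median was 0.21, and 5 of the 37 reached 2-fold, where 0.516% of the 18417 measured genes did. The summed level of these markers rose from 12.60 to 12.92 (log2 of the sum) between the SW620 arrays. In the negative and positive arrays it was 13.63 and 13.13 in COLO741, 12.62 and 12.55 in HT29, and 13.36 and 13.38 in HCT116. Single bright genes weigh most in such a sum, such as CD68 at 13.03 and 12.17 in COLO741 and VCAN at 12.14 and 12.10 in HCT116. PTPRC (CD45), the antigen shared by nearly all leukocytes, measured 4.87 and 6.96 in SW620 and 4.82 to 5.11 in the other 6 arrays, at background throughout. FPR3, a formyl peptide receptor, measured 5.94 and 7.58, or at least 1.06-fold. The other 3 lay at background in both SW620 arrays, VCAN, versican, at 5.86 and 7.16, CCR1, a chemokine receptor, at 6.22 and 7.25, and FCGR2A. CSF1R, the receptor for the macrophage growth factor, measured 7.32 and 7.88 against 7.20 to 7.49 in the other lines. CD163, AIF1 and MRC1 differed by 0.64, 0.55 and 0.24, and the complement genes C1QA and C1QB by -0.35 and -0.20, with all 5 at background in both SW620 arrays. ITGAM, ITGAX and MARCO differed by 0.03, 0.25 and -0.09, also at background in both. C1QC measured 7.64 in the negative and 7.32 in the positive array. In bulk arrays fewer cells of a type and less RNA per cell cannot be told apart, and the part of other cells in the result was not tested.

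Chemokine and cytokine genes that macrophages make were 2-fold higher for 4 of 25. CCL2, which draws monocytes, measured 6.89 and 10.17 in SW620 and 11.47 and 11.51 in COLO741, with 6.81 to 7.04 in HT29 and HCT116. Its SW620 difference of 3.28, at least 6.39-fold, exceeded that of CYBB. CXCL16, a chemokine that is also a scavenger receptor, measured 6.89 and 8.62, and IL18, an inflammasome-processed cytokine, 5.93 and 7.48, both at background, and HCT116 was the brightest line for both. The other gene was CCL5, which draws T cells and monocytes, at 7.04 and 8.05, or at least 1.47-fold.

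Markers of other cell types showed single genes of this kind. Of 24 T, B and NK cell markers 1 was 2-fold higher, MS4A1 (CD20), at 5.62 and 6.72 and so at background, with KLRD1 and KLRF1 differing by 0.86 and 0.72, also at background, and the summed level went from 12.64 to 12.79. Neutrophil and mast cell markers had 1 of 13, S100A12 again. MMP9 differed by 0.78 and MMP8, at background, by 0.27, and the summed level was 10.45 and 10.76. Fibroblast and endothelial markers had 1 of 16, PECAM1, at 6.77 and 7.90 or at least 1.32-fold. DCN differed by -0.41 and POSTN by -0.47, both at background, and the summed level was 11.84 and 11.90. Epithelial markers had 1 of 15, CDH1 (E-cadherin), at 9.98 and 11.46, with CLDN7 differing by 0.52 and ELF3 by 0.35 and a summed level of 16.26 and 16.42. Melanocyte markers had 0 of 11, with a summed level of 11.32 and 11.43. MLANA differed by -0.68 and SLC45A2 by -0.38, both at background, and OCA2 by 0.41.

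Across the 8 arrays the genes most like the mean of the 10, each scaled to its own mean and SD, were IGSF6 (Pearson r = 0.982), ANPEP (0.963), S100A8 (0.960), ITGB2 (0.953), CYTIP (0.950), FPR3 (0.931), CCL24 (0.930), INHBE (0.928), DKK4 (0.927) and CD86 (0.923). These r describe a likeness over 8 arrays in which 1 array carries most of the variation. That array is the SW620 positive array, on which the 10 were chosen, so the list is no separate support. S100A8, CYTIP and CD86 measured 7.69, 7.19 and 6.56 there. In the other arrays they ran from 5.40 to 5.63, 5.29 to 5.74 and 5.53 to 5.82. These 3 passed the filter on dim genes only with the SW620 positive array included. ANPEP, aminopeptidase N, an enzyme of myeloid cells and of enterocytes, measured 7.68 and 8.91 in SW620 and 7.37 to 7.75 elsewhere. ITGB2, the beta 2 integrin chain of leukocytes, measured 7.78 and 8.24 in SW620 and 7.71 to 7.82 elsewhere. DKK4, a secreted Wnt inhibitor, measured 8.01 and 9.86 in SW620 and 6.92 to 7.21 elsewhere. Among the 10 themselves, the correlation of a gene with the mean of the other 9 was 0.852 for CYBB, 0.847 for ALOX5AP, 0.845 for MPEG1, 0.822 for FCER1G, 0.797 for CD53 and 0.765 for LAPTM5, against 0.649 for SRGN, 0.585 for CD14, 0.200 for LYZ and 0.074 for CTSS. The same choice on the SW620 positive array bears on these values, so they too are descriptions.

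Beside the 8 of the 10 at 2-fold, another 80 genes were at least 2-fold higher in the SW620 positive array. In 30 of the 80, or 37.5%, that array exceeded all 6 arrays of the other lines. It was the highest of all 8 arrays for 13.9% of the genes tested. A rise within SW620 favours that position, so the share is a description.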

How the data were processed

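Expression was measured on 8 arrays, 4 labelled ABCB5-positive and 4 ABCB5-negative. The authors deposited 1 log2 value for each of 33297 probe sets and array, with 0 missing, made with Affymetrix Expression Console per the submitters' processing notes. The log2 scale was read from the range of 2.99 to 15.24. The labels and notes used here give no version, summarisation method, background correction or normalization. Array medians lay between 8.03 and 8.10, and no further normalization was applied. The number of arrays limits the precision.

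Probe sets were named by the platform annotation, with symbols updated through gene identifiers of GRCh38.p14. Of them 19460 named 1 gene (19429 with a matched identifier), 1754 named several and 12083 were not listed. The probe set of highest mean stood for each of 18417 genes. Genes with a mean below 5.73, the median of the olfactory receptor probe sets, were left out, 1507 in all, and 16910 were tested.

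Tests used limma 3.58.1 in R 4.3.3 on the 6 arrays of COLO741, HT29 and HCT116, two-sided, with Benjamini-Hochberg adjustment over all genes tested and a threshold of 0.05. The population fit had the cell line as a fixed block, since the labels give both populations of a line the same cell line, and the line fit had the population as covariate. Each left 2 residual degrees of freedom, to which moderation added 3.12. Deviations from the group means correlated at 0.932 to 0.963 between the arrays of a line. Where nothing in the labels names separate cultures, p-values measure only the spread between these arrays, part of which may be technical. The fits were tested on simulated data.

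The 10 genes, the 16 lists and the motifs were chosen with earlier results of these data known. Beside the 10, the genes named are the 3 of each list with the widest SW620 difference, the 10 most like the mean of the genes, and defining markers (CSF1R, SPI1, PTPRC, C1QA, C1QB, C1QC, CD163, AIF1 and MRC1). CCR1 and CCL5 were named after their values were seen, to complete counts of list genes past 2-fold. ITGAM, ITGAX and MARCO were also named after their values were seen, as further macrophage markers. Alternatives were other filters, array centring, quantile normalization, means of probe sets, other block models, other fold thresholds and leaving out lines or arrays. Raising low values to the background limit was added after seeing the data.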

Additional observations from a re-analysis of the deposited data

Results flagged for a closer look

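Of 20 groups of 4 arrays examined, 10 genes in each population, 4 held an array far from the others, a rule that chance meets in about 1 in 20 groups of replicates. The arrays of a group are different lines, and 3 of the 4 lie on the SW620 arrays on which the genes were picked, so the count is not read against chance. FCER1G and MPEG1 stood out in the SW620 ABCB5-positive array, where the gap to the next array was 0.916 and 0.832 of the range of the group. LAPTM5 stood out in the SW620 ABCB5-negative array, with a gap of 0.880 of the range, and SRGN in the COLO741 ABCB5-negative array, with 0.847.

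CD53 and SRGN were higher in the positive array of SW620, by 1.27 and 1.90, as the choice of the genes required. In each of the other 3 lines they were lower in the positive array. For CD53 the differences were -0.19 in COLO741, -0.53 in HT29 and -0.15 in HCT116, with all 6 arrays at background. For SRGN they were -0.23 in COLO741 and, at background, -0.01 in HT29 and -0.05 in HCT116. Directions at background may not reflect transcripts. The difference between SW620 and the other lines was not tested, since SW620 has 1 array per population.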

How the results depend on the processing

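The 8 genes at 2-fold in SW620 were 8 also with centred arrays, quantile normalization and means of probe sets, 10 at a 1.5-fold (1.79% of all genes) and 5 at a 3-fold threshold (0.142%), and 6 with low values raised to background, where 0.242% of all genes were called. The SW620 arrays cannot be left out of that contrast. For the population difference outside SW620, 0 genes passed under every alternative, including the fits with no replicate block and with a random replicate block, where 22 and 760 genes had an unadjusted p under 0.05. Between COLO741 and the other lines the called genes of the 10 were 6 with centred arrays and 6 with quantile normalization, where ALOX5AP passed as well. They were 2 with the strict filter, which left CTSS, SRGN and CYBB untested, and 3 with SW620 in the fit. Without single arrays they numbered 5 to 7, beside 6042 to 7651 of all genes against 8113, and for HT29 against HCT116 2 to 3, where all called genes numbered 3133 to 7804 against 6468, with 3133 and 3254 without an HCT116 array and 4006 and 4058 without an HT29 array.

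Directions turned only in genes short of the threshold. Without single lines the population difference ran from -0.15 to 0.033 for CYBB, -0.19 to 0.079 for CD14, -0.056 to 0.20 for MPEG1 and -0.052 to 0.23 for ALOX5AP. Without single arrays COLO741 against the other lines ran from -0.22 to 0.10 for FCER1G and -0.091 to 0.55 for LAPTM5, and HT29 against HCT116 from -0.39 to 0.12 for MPEG1, -0.30 to 0.21 for LAPTM5 and -0.084 to 0.35 for ALOX5AP. The cause of these turns was not tested. Background limits the SW620 folds, since 7 of the 10 genes lay there in the negative array.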
